A study of Homo sapiens with 2 samples.

Results

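The keratin genes were examined in spheres of U87MG, a long established glioblastoma cell line of human origin. The deposited table lists 58735 genes, and 55 of them are protein-coding with a name made of KRT and a number. Of these 55, 27 lie on chromosome 12 and 28 on chromosome 17. Keratins form the intermediate filaments of epithelial cells. An acidic type I chain pairs with a basic type II chain, so filaments need both types. The type II genes are clustered on chromosome 12 and the type I genes on chromosome 17, except KRT18, a type I gene that sits beside its type II partner KRT8 on chromosome 12. Simple epithelia are known for KRT8 and KRT18, basal layers of stratified epithelia for KRT5 and KRT14, and hair shafts for the hair keratins. Glial and mesenchymal cells build their filaments mainly from vimentin, nestin and GFAP.

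Each of the 2 groups held 1 library of U87MG cells kept for a week in stem cell conditions. Per the labels, both groups were infected with lentivirus and selected with puromycin. The control group received pGIPZ-CTRL and the other group a TRIP13-shRNA virus. The labels speak of stable clones and do not give their number. TRIP13, the target, was not lower in the library labelled with its shRNA. It stood at 11.9 FPKM in the control library and at 23.1 FPKM in the other (819 and 1593 reads, log2 ratio 0.90). The latter is therefore called the library labelled TRIP13 shRNA, and each direction below holds between the libraries as labelled. Where values are set against each other, its value comes before that of the control library.

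FPKM scales the fragments of a gene by its length and by a library total. In the deposited values the scaling was the same in both libraries, so FPKM ratios equal read ratios without correction for depth. Whole reads were recovered from the FPKM values, 19903836 against 18871063, a depth ratio of 1.05. The log2 ratio is taken after adding 1 to each FPKM, with the control library as denominator, and it understates differences between low levels. Replicates are lacking, so differences carry no replicate error and no test. Brackets after a ratio or fold give its 95% exact (Clopper-Pearson) counting interval, which covers counting error only. Markers of the labelled cell type were mixed. Vimentin (VIM) stood at 427 against 442 FPKM. GFAP had 28 against 92 reads, SOX2 1 against 2 and PROM1 1 against 5. The summed level of the 11 genes of the astrocyte and glioma list was 73.8 against 127 FPKM. The gene GJA1 alone made up 62.3 and 103 FPKM of these sums, so they say little about the other members.

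No read was found for many keratins at this depth. Of the 55, 26 had 0 reads in both libraries, 15 on chromosome 12 and 11 on chromosome 17. A further 12 had 1 to 9 reads over both libraries together, and 17 had at least 10. A count of 0 allows up to 3 reads, which is 0.155 FPKM in a gene of 1 kb. At least 1 read was found for 24 against 25 keratins, 5 of them with reads in the control library only and 4 in the other only. A mean of 1 FPKM or more, the level required for the size rule below, was reached by 7 keratins, 4 on chromosome 12 and 3 on chromosome 17. The lowest of the 7 was KRT78 with a mean of 1.32 FPKM, and the next below the limit was KRT32 with 0.678.

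**Figure D1:**
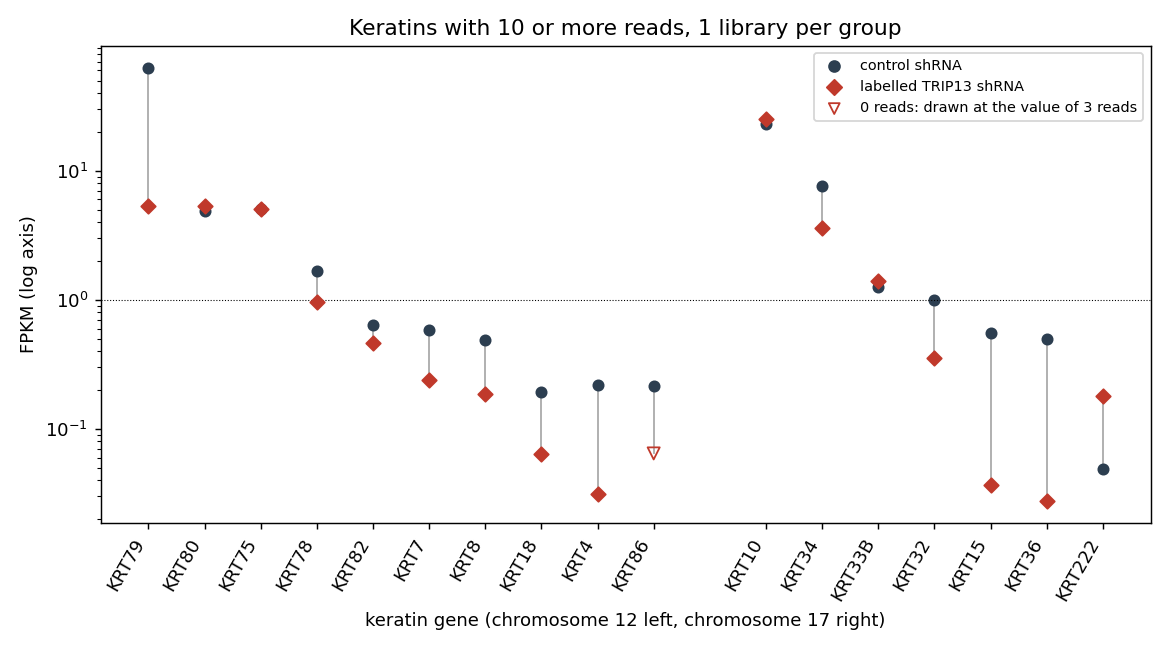
FPKM on a log axis of the 17 keratins with at least 10 reads, chromosome 12 on the left and chromosome 17 on the right, with 1 point per library and a dotted line at 1 FPKM. KRT79 spans the widest gap among the well expressed genes, from 63.0 FPKM in the control library to 5.38, while the points of KRT80, KRT75, KRT10 and KRT33B lie almost on each other.

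KRT79, a type II keratin known from the ducts of hair follicles and sebaceous glands, differed most among the 7. It lies on hg38 chromosome 12 from 52821410 to 52834295, minus strand (ENSG00000185640). Its level was 63.0 FPKM in the control library and 5.38 FPKM in the library labelled TRIP13 shRNA, from 3106 and 265 reads. It was thus 11.7-fold lower (10.3 to 13.3), with a log2 ratio of -3.33. Of the 50-base stretches of its transcripts, 0.236% also occur in transcripts of other genes, and its exons overlap no other annotated gene. In these bulk libraries fewer cells with a transcript and less RNA per cell cannot be told apart.

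By the size rule of a log2 ratio of 1 or more in either direction, KRT79 was the only keratin past it. That is 1 of 7 lower, beside 4.19% of 10671 protein-coding genes with a mean of 1 FPKM or more. None of the 7 was higher, beside 2.17% of those genes. Of the other 6, KRT34 and KRT78 lay below 0, KRT75 at 0 and KRT10, KRT80 and KRT33B above 0. The median log2 ratio of the 4 chromosome 12 keratins was -0.22 and that of the 3 chromosome 17 keratins 0.10, while that of all 10671 genes was 0.12. Medians of so few genes turn on their members. The chromosome 12 median was 0.00 without KRT79, and the chromosome 17 median was -0.41 without KRT10.

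KRT10, the type I keratin of the suprabasal epidermis, was the most abundant keratin of the library labelled TRIP13 shRNA. It had 25.2 against 22.9 FPKM (1047 and 951 reads), and the ratio of 1.10 (1.01 to 1.20) included the depth ratio. The log2 ratio was 0.13 as deposited and -0.00 once the median ratio of all genes was set to 1. KRT10 exons share 2.61% of their length with TMEM99, a gene of the opposite strand that had 294 against 232 reads. KRT1, the usual type II partner of KRT10, had 0 reads in both libraries.

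KRT80, a type II keratin of many epithelia, stood at 5.34 against 4.91 FPKM (450 and 414 reads), a ratio of 1.09 (0.949 to 1.25). The log2 ratio was 0.10 as deposited and -0.02 with the median ratio set to 1, so KRT80 is given no direction. KRT75, a type II keratin of the companion layer of the hair follicle, had 226 reads in each library, or 5.02 FPKM. Its ratio was 1.0 (0.828 to 1.21). These 2 genes lie in the same cluster as KRT79 and did not show its difference at this depth. KRT78, the neighbour of KRT79, stood at 0.965 against 1.68 FPKM and was 1.74-fold lower (1.26 to 2.42) from 61 against 106 reads.

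Hair shaft keratins were represented by 17 genes, 7 of them with 0 reads in both libraries and 6 with at least 10 reads. KRT34, a type I hair keratin, stood at 3.60 against 7.66 FPKM and was 2.13-fold lower (1.71 to 2.66) from 122 against 260 reads. Its log2 ratio was -0.91, just short of the size rule, and reached -1.02 with the median ratio set to 1. KRT33B, which lies next to it, stood at 1.41 against 1.25 FPKM from 44 and 39 reads, a ratio of 1.13 (0.716 to 1.78). These paralogs resemble each other, and 11.4% of the 50-base stretches of KRT34 and 27.7% of those of KRT33B occur in other genes, so the reads of both are less certain. KRT32 had 12 against 34 reads, 2.83-fold lower (1.43 to 6.01). KRT36 had 1 against 18 reads, a ratio of 0.0556 (0.00133 to 0.352). KRT82 had 24 against 33 reads, and the interval of its ratio, 0.727 (0.411 to 1.27), included 1. KRT86 had 0 against 10 reads, at least 3.33-fold lower against a floor of 3 reads in the library, while its counting interval begins at 2.24-fold lower. It shares 37.5% of its 50-base stretches with other genes, KRT81 above all, and its value is uncertain.

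The 5 simple epithelial keratins were weak in both libraries, with 50 against 129 reads in all and 3 genes with at least 10 reads. KRT7 had 19 against 46 reads (0.240 against 0.580 FPKM), 2.42-fold lower (1.39 to 4.38). KRT8 had 25 against 65 reads (0.187 against 0.487 FPKM), 2.60-fold lower (1.62 to 4.30). Its partner KRT18 had 4 against 12 reads, and its ratio of 0.333 (0.0784 to 1.10) included 1. KRT19 had 2 against 6 reads and KRT20 had 0 in both. The annotated exons of KRT8 and KRT18 overlap on opposite strands, over 16.3% of the length of KRT18, and 10.1% and 14.3% of their 50-base stretches occur elsewhere, mainly in their processed pseudogenes. The 50 KRT8 pseudogenes held 415 against 432 reads and the 67 KRT18 pseudogenes 41 against 63. KRT8P33 had 28 against 31 reads. The pseudogenes were not uniform. KRT8P14 had 3 against 31 reads, a ratio of 0.0968 (0.0189 to 0.310), and KRT18P34 2 against 13, a ratio of 0.154 (0.0169 to 0.680). KRT8P46 had 24 against 17, and the interval of its ratio, 1.41 (0.727 to 2.80), included 1. KRT8P12 alone had 327 against 307 reads, or 8.24 against 7.74 FPKM, a higher level per length than KRT8 in both libraries, and shares 1.45% of its 50-base stretches with other genes.

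KRT15, a type I keratin of basal keratinocytes, had 5 against 76 reads (0.0365 against 0.555 FPKM) and was 15.2-fold lower (6.24 to 48.2). KRT5 and KRT14, the main basal pair, had 1 against 0 and 0 against 0 reads. KRT4, a type II keratin of internal stratified epithelia, had 2 against 14 reads and a ratio of 0.143 (0.0158 to 0.622), and its usual type I partner KRT13 had 1 against 2. The stress keratins KRT6A, KRT6B, KRT6C, KRT16 and KRT17 had 3 against 5 reads in all. KRT222, at one end of the chromosome 17 group, was the 1 keratin of the 10 with at least 10 reads and a mean under 1 FPKM that had more reads in the library labelled TRIP13 shRNA, 11 against 3. Its ratio of 3.67 (0.969 to 20.5) included 1, and it shares 34.5% of its exon length with another gene. KRT39 had 5 against 0 reads and KRT12 had 4 against 0.

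**Figure D2:**
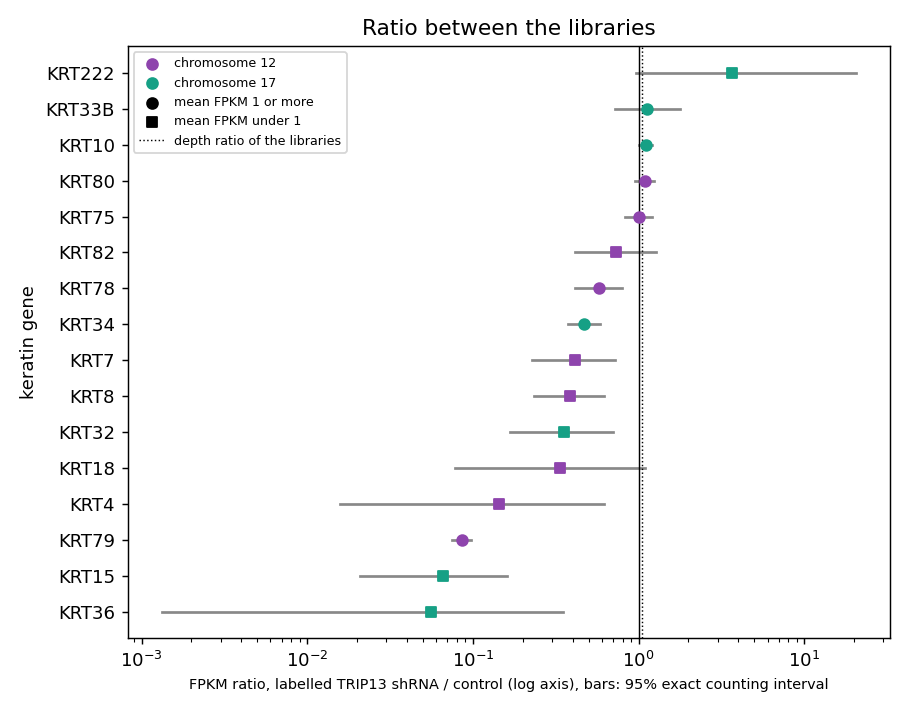
FPKM ratio of the library labelled TRIP13 shRNA to the control library on a log axis for the 16 keratins with at least 10 reads over both libraries and at least 1 in the former, with 95% exact counting intervals, a solid line at 1 and a dotted line at the depth ratio. KRT79, KRT15 and KRT36 lie farthest to the left, and no interval lies wholly above the depth ratio.

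The log2 ratio with 1 added to each value compresses such weak genes, so reads were also compared directly by a rule chosen after the values were seen. It takes protein-coding genes with at least 10 reads and calls those whose reads are at least 2-fold apart with a counting interval that leaves out 1. Of 17 keratins, 9 were lower by this rule (KRT79, KRT34, KRT15, KRT36, KRT4, KRT32, KRT8, KRT7 and KRT86), beside 11.3% of 13608 genes. No keratin was higher, beside 4.86% of the genes. Weak genes as a whole leaned the same way. Among 2938 genes with at least 10 reads and a mean under 1 FPKM, 28.0% were lower and 7.56% higher, and the median read ratio was 0.737. Of the 10 keratins in that range, 7 were lower and 0 higher. The 9 include members on both chromosomes, of types I and II. The part that the lean of weak genes has in the keratin count was not tested.

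Summed over all 55 genes, the keratin level was 48.9 against 111 FPKM. The chromosome 12 sum was 17.7 against 77.0 FPKM, 4.34-fold lower (4.05 to 4.65, here an interval from Poisson counting error of the sum). Without KRT79 it was 12.4 against 14.0 FPKM, a ratio of 0.886 (0.802 to 0.978). The chromosome 17 sum was 31.1 against 34.3 FPKM, a ratio of 0.907 (0.840 to 0.980), and without KRT10 it was 5.94 against 11.4 FPKM, a ratio of 0.519 (0.439 to 0.614). The sum of chromosome 12 was thus 2.24 times that of chromosome 17 in the control library and 0.570 times in the library labelled TRIP13 shRNA. Without KRT79 these values were 0.407 and 0.397, with KRT10 kept in the chromosome 17 sum. That closeness depends on keeping KRT10, since the rest of chromosome 17 stood at 5.94 against 11.4 FPKM. The balance with both leading genes left out was not computed. Moving KRT18 to type I left the sums at ratios of 0.230 for type II and 0.904 for type I.

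KRT79 took 57.2% (55.9 to 58.5, Clopper-Pearson) of the 5432 keratin reads in the control library and 11.3% (10.1 to 12.7) of the 2336 in the library labelled TRIP13 shRNA. KRT10 took 17.5% (16.5 to 18.5) in the control library and 44.8% (42.8 to 46.9) in the other. These shares came from 951 and 1047 KRT10 reads set over those unlike totals, so they do not show a gain of KRT10. The leading keratin by FPKM was a type II gene in the control library and a type I gene in the other.

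**Figure D3:**
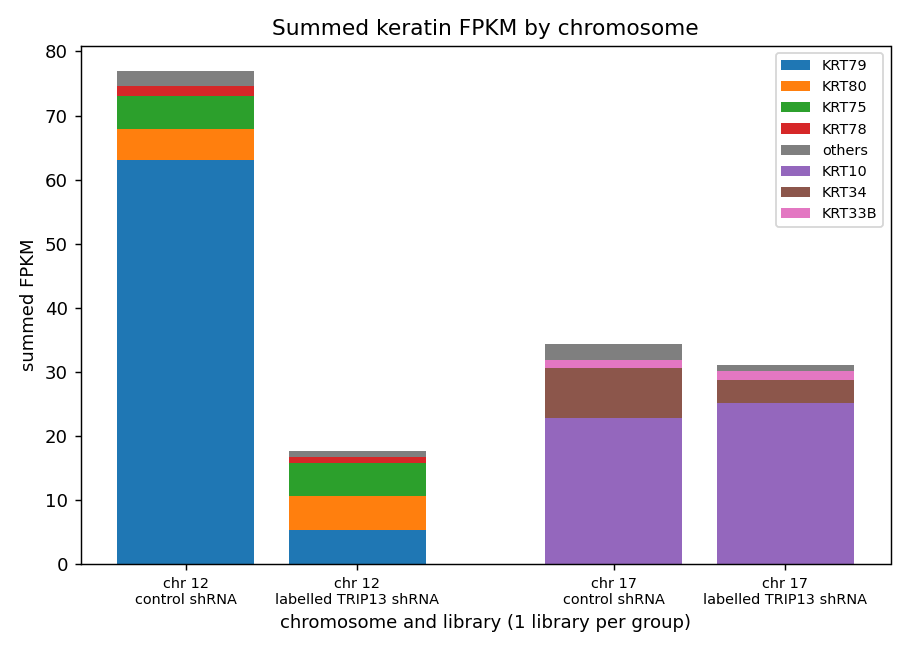
Summed FPKM of the keratins of each chromosome in each library, stacked by gene. The KRT79 block makes up 63.0 of 77.0 FPKM in the control bar of chromosome 12 and 5.38 of 17.7 FPKM in the other, while the KRT10 blocks of chromosome 17 are 22.9 and 25.2 FPKM high.

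Along the chromosomes the expressed keratins lay apart from long silent runs. On chromosome 12 the genes at one end, KRT4, KRT79, KRT78, KRT8 and KRT18, are consecutive, and all had fewer reads in the library labelled TRIP13 shRNA. Their range of folds was wide, from 1.74-fold for KRT78 to 11.7-fold for KRT79. KRT80 and KRT75, nearer the other end, had ratios of 1.09 and 1.0, while KRT7 and KRT86 between them were lower, KRT86 with an uncertain value. KRT82, also between them, had a ratio of 0.727 (0.411 to 1.27), which included 1. The run from KRT4 to KRT18 was noticed after the values were seen. Between KRT79 and KRT78 the table lists AC107016.1, a processed pseudogene on the plus strand (52837403 to 52837739). It begins 3108 bases upstream of the annotated KRT79 start and ends 65 bases from the 3' end of KRT78. It had 16 against 422 reads, 26.4-fold lower (16.1 to 46.6), and 0% of its 50-base stretches occur in other annotated transcripts. It too was singled out after its values were seen. On chromosome 17, each of the 5 genes with reads from KRT32 to KRT19 (KRT32, KRT36, KRT13, KRT15 and KRT19) had fewer reads in that library, and those of KRT13 and KRT19 were too few to give a direction. This run too was noticed after the values were seen. Weak protein-coding genes leaned the same way, with a median read ratio of 0.737 and 28.0% lower against 7.56% higher by the read rule. The share of all genes with fewer reads was not computed, and the part of that lean in either run was not tested.

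**Figure D4:**
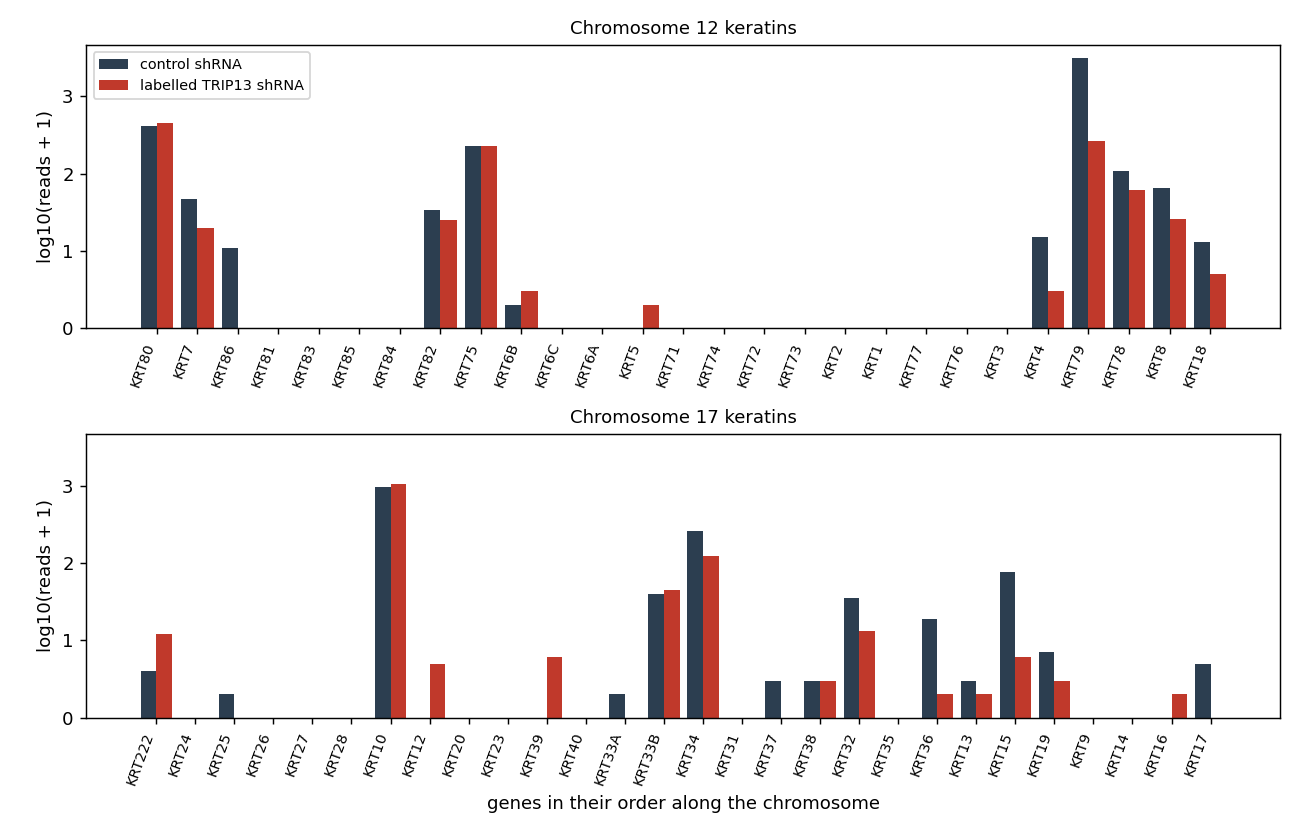
Reads per keratin as log10(reads + 1) in each library, with genes in their order along chromosome 12 (top) and chromosome 17 (bottom). Expressed genes sit at both ends of the chromosome 12 row, and the control bars are higher for each of the 5 genes from KRT4 to KRT18.

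Promoter sequences, 250 bases before to 50 after each start, were found in RefSeq (GRCh38.p14) for 38 of the 55 keratins and for 5 of the 7 with a mean of 1 FPKM or more. The letters TATAAA, searched on both strands, occur in 21 of the 38 (55.3%) and in 11.5% of 35116 promoters of that length. They occur in 6 of 15 on chromosome 12 and in 15 of 23 on chromosome 17. The AP-1 letters TGACTCA or TGAGTCA, which are reverse complements of each other, occur in 0 of the 38 and in 4.95% of all. The promoters of the 3 keratins that carried the comparison are given for the gene with the largest difference (KRT79), the hair keratin with an intermediate difference (KRT34) and the most abundant gene with a near equal level (KRT10), with TATAAA in capitals. All are on the minus strand and read 5′ to 3′, at chr12:52834262-52834561, chr17:41382257-41382556 and chr17:40822565-40822864.
KRT79: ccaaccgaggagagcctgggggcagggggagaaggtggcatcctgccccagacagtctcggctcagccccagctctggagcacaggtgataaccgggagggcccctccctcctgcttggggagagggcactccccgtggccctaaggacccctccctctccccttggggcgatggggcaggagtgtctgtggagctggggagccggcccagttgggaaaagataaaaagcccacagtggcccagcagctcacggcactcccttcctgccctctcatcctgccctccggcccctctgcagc
KRT34: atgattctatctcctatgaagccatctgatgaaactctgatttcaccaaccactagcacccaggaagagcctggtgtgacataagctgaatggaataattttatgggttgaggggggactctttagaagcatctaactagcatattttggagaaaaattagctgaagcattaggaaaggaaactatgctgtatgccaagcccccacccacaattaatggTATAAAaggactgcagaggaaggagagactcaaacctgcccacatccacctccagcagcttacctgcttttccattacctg
KRT10: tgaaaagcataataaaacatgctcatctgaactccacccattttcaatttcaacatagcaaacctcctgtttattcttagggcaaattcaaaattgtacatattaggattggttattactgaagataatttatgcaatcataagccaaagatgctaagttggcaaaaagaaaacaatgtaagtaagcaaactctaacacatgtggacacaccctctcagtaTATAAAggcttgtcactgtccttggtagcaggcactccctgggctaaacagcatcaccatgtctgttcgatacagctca
The KRT79 window holds no TATAAA, and 67.3% of its bases are G or C. The KRT34 and KRT10 windows hold it, beginning at -31 and -29 from the start, with 44.0% and 37.7% G or C, and the median of all promoters is 58.7%. KRT75, with equal reads in both libraries, holds none and KRT33B holds 1. KRT80 and KRT78 had no promoter entry, and any relation of TATAAA to the ratios was not tested. A match or its absence describes these letters only.

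Other genes of the filament system were read from lists. Of 16 other intermediate filament genes, 7 had a mean of 1 FPKM or more, with a median log2 ratio of 0.29, the value of the nuclear lamin LMNB2. The 4 above 0 were the nuclear lamins LMNA, LMNB1 and LMNB2 with SYNC, and the 3 below 0 were VIM, NES and BFSP1. By the size rule 0 of the 7 were lower, beside 4.19% of all genes tested, and 0 were higher, beside 2.17%. The nuclear lamins LMNB1 (31.7 against 16.3 FPKM) and LMNA (144 against 84.0) had the highest log2 ratios, 0.92 and 0.77. Nestin (NES, 2.21 against 5.23 FPKM) and the lens filament gene BFSP1 (0.629 against 1.63) had the lowest, -0.96 and -0.69. The absence of a lower call depended on the setting. With 0.1 in place of 1 added to each FPKM, NES reached -1.21 and BFSP1 -1.24, past the size rule. With the median ratio set to 1, NES reached -1.05 and BFSP1 -0.74. LMNB1 stayed under the rule, at 0.95 at most. Under a mean of 1 FPKM, GFAP had 28 against 92 reads, a ratio of 0.304 (0.192 to 0.469). NEFM had 33 against 74 reads, a ratio of 0.446 (0.287 to 0.681). SYNM and NEFH had more reads in the library labelled TRIP13 shRNA, 17 against 12 and 3 against 0. Vimentin, at a log2 ratio of -0.05, stood at 8.73 against 3.97 times the summed keratin level of the same library.

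Desmosomes and hemidesmosomes anchor keratin filaments at the membrane. Of 14 desmosome genes, 3 had a mean of 1 FPKM or more, all above 0, beside a median of 0.12 for all genes tested. Of these 3, 0 were past the size rule, beside 4.19% lower and 2.17% higher of all genes tested. These 3 were the cadherin DSG2 (19.0 against 12 FPKM), PERP (11.1 against 8.96) and PKP4 (11.6 against 10.9). The log2 ratio of PKP4 was 0.08 as deposited and -0.05 with the median ratio set to 1. Desmoplakin (DSP), the link between desmosome and filament, had 0 against 2 reads. Other desmosome genes under a mean of 1 FPKM went both ways. PKP3 had 53 against 90 reads, a ratio of 0.589 (0.411 to 0.836). JUP had 10 against 31 reads, a ratio of 0.323 (0.141 to 0.675), while DSG3 had 8 against 0. Of 9 hemidesmosome and plakin genes, 4 had a mean of 1 FPKM or more, 2 above and 2 below 0. Periplakin (PPL), a linker of the cornified envelope, was past the size rule (1 of 4 lower, beside 4.19% of all genes tested) at 0.349 against 1.96 FPKM, 5.62-fold lower (4.17 to 7.70) from 52 against 292 reads. Its log2 ratio was -1.13, and -0.38 at a pseudocount of 5, where the call was lost. Plectin (PLEC), a large filament linker, stood at 82.6 against 55.3 FPKM, the tetraspanin CD151 at 96.7 against 82.8 and dystonin (DST) at 9.20 against 11.2. Under a mean of 1 FPKM, the integrin gene ITGA6 had 29 against 85 reads, a ratio of 0.341 (0.216 to 0.526). ITGB4 had 22 against 38, and the interval of its ratio, 0.579 (0.326 to 1.004), included 1. COL17A1, EPPK1 and EVPL had more reads in the library labelled TRIP13 shRNA, 18 against 16, 4 against 1 and 2 against 1.

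Markers of epithelial cells were low. Of 15 epithelial identity genes, 0 had a mean of 1 FPKM or more, and their summed level was 1.85 against 3.52 FPKM. E-cadherin (CDH1) had 1 against 2 reads, GRHL2 0 in both and EPCAM 31 against 24. The claudins CLDN7 (13 against 55 reads) and CLDN4 (45 against 92) held the most reads of the list in the control library. Of 12 cornified envelope genes, 0 reached that mean, 6 had 0 reads in both, and the summed level was 2.24 against 1.18 FPKM. Filaggrin (FLG), a keratin-bundling protein, had 281 against 95 reads, a ratio of 2.96 (2.34 to 3.77). TCHH had 19 against 6 reads, a ratio of 3.17 (1.22 to 9.69), and TGM1 25 against 27. Of 94 keratin-associated protein genes, which make the matrix of hair, 78 had 0 reads. KRTAP1-5 had 43 against 80 reads, 1.86-fold lower (1.27 to 2.76), and KRTAP16-1 had 11 against 12. 

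Of the 11 astrocyte and glioma genes, 5 had a mean of 1 FPKM or more, and all 5 lay below 0. By the size rule 2 of the 5 were lower, beside 4.19% of all genes tested, and 0 were higher, beside 2.17%. These were the transcription factors SOX9 (0.747 against 4.39 FPKM, log2 ratio -1.63) and OLIG2 (0.339 against 2.72 FPKM, log2 ratio -1.48), which had 57 against 335 and 22 against 177 reads. At a pseudocount of 5 their log2 ratios were -0.71 and -0.53, where both calls were lost. The gap junction gene GJA1 (62.3 against 103 FPKM) and the glutamate transporter gene SLC1A3 (7.91 against 10.6 FPKM) had log2 ratios of -0.72 and -0.38.

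Of 10 mesenchymal genes, 7 had a mean of 1 FPKM or more, 6 below 0 and 1 above. By the size rule 3 of the 7 were lower, beside the same 4.19%, and 0 higher. The platelet-derived growth factor receptor gene PDGFRB (1.74 against 12.4 FPKM, log2 ratio -2.29) and fibronectin (FN1, 85.3 against 329 FPKM, -1.93) lay lowest of the 7. LUM (2.08 against 7.55 FPKM, -1.47) was the other gene past the rule. Genes under a mean of 1 FPKM were also lower. DCN had 33 against 386 reads, 11.7-fold lower (8.19 to 17.2), a fold like that of KRT79. THY1 had 3 against 76, 25.3-fold lower (8.35 to 126), and COL3A1 6 against 17, 2.83-fold lower (1.07 to 8.78). The log2 ratio of N-cadherin (CDH2, 14.2 against 9.76 FPKM) was 0.50, and those of VIM and the collagen gene COL1A1 were -0.05 and -0.10. The summed level was 606 against 897 FPKM, a gap made up mostly by FN1. The part of these genes in the keratin values was not tested.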

How the data were processed

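RNA sequencing was done on 2 libraries, 1 per group. The authors deposited FPKM values per gene; Per the submitters' processing notes, the build was hg38 and the tools included edgeR, featureCounts 1.5.0-p3 and HISAT2 2.0.5, with roles and settings unstated. Strand handling is not given in the sources used here, nor is the annotation. Lengths and positions of all 55 keratins equalled GENCODE 29. FPKM times length gave whole multiples of 1 step for 100% of values (tolerance 0.01 of a read), the same step in both libraries, so FPKM ratios equal read ratios without correction for depth. Named by rule were TRIP13, keratins with a mean of 1 FPKM or more or at least 10 reads, of each other list the 2 highest and 2 lowest genes with a mean of 1 FPKM or more and markers at or near 0, and of pseudogenes and keratin-associated genes the 2 with most reads. Some further list members were named after their values were seen. Members and lists were chosen with earlier results of these data known. The pseudocount was 1, with 0.1 and 5 as alternatives; others were no filter, a mean of 5 FPKM, own totals, TPM, a median ratio of 1, grouping by type and leaving out the leading member. Shared 50-base stretches were counted in GENCODE 29 transcripts, in the sense direction; the read length is not given in the sources used here. Calculations were tested on simulated data. Protein sequences were not analysed here. Software was scipy 1.17.1, numpy 2.4.6, pandas 2.3.3 and matplotlib 3.10.9 under Python 3.11.15.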

Additional observations from a re-analysis of the deposited data

How the results depend on the processing

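No paired analysis was possible because there was 1 library in each group. The count of keratins at least 2-fold lower was 1, KRT79, and became 2 with KRT34 at a pseudocount of 0.1 and with the median ratio set to 1, and to 4 with KRT34, KRT15 and KRT32 under TPM, which lets 12 keratins past the filter. Under TPM 7.85% of 12183 genes were lower by the rule, against 4.19% as deposited. It was 1 under the other settings, and the count of higher keratins was 0 under each. Of all genes past the size rule, 34.2% were higher as deposited, 25.8% with own totals, 22.5% under TPM and 20.2% with the median ratio set to 1, and these 3 scalings shifted the median log2 ratio of all genes by -0.07, -0.12 and -0.12. The TRIP13 log2 ratio was 0.74 at a pseudocount of 5 and 0.77 with the median ratio set to 1. The chromosome 12 median was -0.75 under TPM. The chromosome 17 median was -1.09 under TPM, -0.39 at a mean of 5 FPKM or more and -0.41 without KRT10. The chromosome 12 sum ratio was 0.213 under TPM, 0.209 with the median ratio set to 1 and 0.886 without KRT79, and the chromosome 17 sum ratio 0.837, 0.823 and, without KRT10, 0.519. Rescaling the read rule, chosen after seeing the data, gave 9 to 10 lower keratins, KRT18 being added with the median ratio set to 1, and 0 higher. Of 39 genes chosen by the naming rule, 4 took both signs over the alternatives (KRT10, KRT80, KRT8P12 and PKP4). KRT79 stayed between -3.60 and -2.71. Depth limits the 12 keratins with 1 to 9 reads, for which no direction is read.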
